A study of Mus musculus with 12 samples.

Results

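The genes described here encode 9 scavenger receptors of macrophages, Msr1, Marco, Colec12, Cd36, Scarb1, Olr1, Stab1, Cd163 and Mrc1. They were chosen by symbol from the 48526 genes of a count table, and all 9 were among the 15523 genes with enough counts to be tested. The RNA was total RNA of BMDMs, macrophages that were differentiated from mouse bone marrow over 6 days in medium conditioned by L929 cells. The cells came from mice homozygous for the HSS9 deletion (KO), a germline deletion made at an enhancer upstream of Tnf, or from HSS9+/+ mice (WT). The labels call the WT mice littermates, whereas the methods describe KO breeding pairs and purchased C57BL/6 mice, so a shared background of the genotypes is not assured. Cells received PBS (UT) or LPS, an endotoxin of Gram-negative bacteria that acts on macrophages through Toll-like receptor signalling, for 6 hr. Each of the 4 groups, WT and KO with PBS (WT UT, KO UT) or with LPS (WT LPS, KO LPS), held 3 libraries, from young adult male mice by the study's methods. Nothing in the labels ties each library to a separate mouse or culture, so p-values measure the spread between these libraries, which may in part be technical.

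Scavenger receptors are membrane proteins that bind modified lipoproteins, bacterial surface molecules, dying cells and carbohydrates, and carry them into the cell. They are grouped by structure rather than by descent. Msr1, Marco and Colec12 have collagen-like stalks, Cd36 and Scarb1 cross the membrane at both ends and handle lipids, and Olr1 is a lectin-like receptor of oxidized LDL. Stab1, Cd163 and Mrc1 are clearance receptors often used to mark macrophages of resting or alternatively activated tissue. In macrophages these receptors serve lipid uptake, the clearance of dying cells and the binding of bacteria. The comparisons asked how the mRNA of each receptor differed between KO and WT without and with LPS, and how LPS changed it in each genotype.

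Promoter sequences are shown for the pair of receptors that rose with LPS from low counts (Marco and Olr1) and for the pair with the clearest differences between genotypes (Cd36 and Mrc1). Each is the 250 bases before an annotated start in RefSeq, on GRCm38.p6, written 5′ to 3′ on the strand of the gene, with matches to 7 searched motifs in capitals. The windows are chr1:120505025-120505274 on the minus strand for Marco, chr6:129507166-129507415 on the minus strand for Olr1, chr5:17835897-17836146 on the minus strand for Cd36 and chr2:14229164-14229413 on the plus strand for Mrc1. That of Cd36 lies inside the annotated gene, before a start downstream of its 5′ end.
Marco: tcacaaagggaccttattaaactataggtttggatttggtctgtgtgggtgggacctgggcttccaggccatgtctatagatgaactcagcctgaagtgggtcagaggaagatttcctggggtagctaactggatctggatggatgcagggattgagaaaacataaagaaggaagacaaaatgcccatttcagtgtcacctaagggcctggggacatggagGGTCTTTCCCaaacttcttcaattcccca
Olr1: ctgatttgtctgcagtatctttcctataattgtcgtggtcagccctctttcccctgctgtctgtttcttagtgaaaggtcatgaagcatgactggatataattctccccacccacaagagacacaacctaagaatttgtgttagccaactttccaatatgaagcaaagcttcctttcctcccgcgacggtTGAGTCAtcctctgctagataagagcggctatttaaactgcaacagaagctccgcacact
Cd36: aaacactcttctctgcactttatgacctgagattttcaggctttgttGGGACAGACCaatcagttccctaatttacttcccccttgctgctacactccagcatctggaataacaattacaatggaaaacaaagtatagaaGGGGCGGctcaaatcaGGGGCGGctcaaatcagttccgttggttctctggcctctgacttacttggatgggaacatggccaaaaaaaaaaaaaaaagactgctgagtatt
Mrc1: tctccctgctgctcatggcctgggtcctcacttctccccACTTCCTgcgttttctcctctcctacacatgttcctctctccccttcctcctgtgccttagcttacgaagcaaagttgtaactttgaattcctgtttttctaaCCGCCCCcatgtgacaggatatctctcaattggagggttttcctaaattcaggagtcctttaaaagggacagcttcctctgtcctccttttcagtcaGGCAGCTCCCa
Both strands were searched for AP-1 (TGANTCA), C/EBP (TTGCNNAA), ETS (AGGAAGT), the GC box (GGGGCGG) and the TATA box (TATAAA). They were also searched for NF-kappaB (GGGA, any 4 bases, then CC) and ISRE (GAAA on both sides of any 2 bases). The capitals in Marco are an NF-kappaB match that begins 29 bases before the start, on the strand opposite the gene. Olr1 held an AP-1 match 60 bases before the start. Cd36 held an NF-kappaB match 203 bases before the start and 2 GC boxes at 110 and 94 bases. Mrc1 held an ETS match at 211 bases, a GC box at 108 bases and an NF-kappaB match at 11 bases, which falls in the first exon by the more upstream start of GENCODE. No match shared a base with another. Of 32851 promoter windows of the same length, 6.75% held the AP-1 letters, 17.6% the NF-kappaB letters, 7.69% the ETS letters and 21.0% the GC box, so these letters are common. A match describes the sequence and is not a site. The promoter table held 6 of the 9 genes, and Msr1, Scarb1 and Colec12 were not among them. Of the 6, Stab1 held none of the 7 motifs and Cd163 held 2 NF-kappaB matches. In this window of Marco and Olr1 none of the 6 other motifs matched beside the one shown in each.

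Expression is given as CPM, each count relative to the size of its library after TMM scaling, times 1e+06. Differences are log2 fold changes from the edgeR quasi-likelihood test, with adjusted p over all 15523 genes. The criteria of a call were an adjusted p below 0.05 together with a log2 fold change beyond 1 in either direction. A gene that passed the adjusted p alone is said here to have passed the test. Total counts ranged from 26154533 to 36423921 per library. Tnf, which lies downstream of the deleted sequence and checks the labels, was 826, 905 and 938 CPM in WT LPS and 422, 449.5 and 425 CPM in KO LPS (log2 fold change -1.04, edgeR adjusted p = 2.76e-10). The cells matched their label: all 8 macrophage markers were detected in every group, at summed levels of 24392 to 33214 CPM, whereas the 9 stromal markers summed to 9.12 to 40.3 CPM and the 7 endothelial markers to 92.9 to 151 CPM. The 7 neutrophil markers summed to 18.6 to 79.4 CPM, and Ly6g, which defines neutrophils, was at 0 in every library. The dendritic cell markers summed to 7.08 to 15.2 CPM, the B cell markers to at most 1.79 CPM and the T cell markers to at most 8.33 CPM, of which Lck made up 98.9%. A share of counts on short structured RNAs (such as Rn7sk and Rmrp) separated the genotypes. It was 2.92% to 3.16% in WT UT and 6.52% to 7.85% in KO UT, and 3.93% to 6.73% in WT LPS and 3.15% to 3.34% in KO LPS. The groups did not overlap in either condition, so this share and the genotype cannot fully be told apart. Values fitted with the share as a covariate are given beside the genotype differences they touch. The slope of that fit rests on the spread of the share within groups, which was widest in WT LPS. In UT that slope is carried across a gap, from 3.16% to 6.52%, that holds no UT library. With the covariate the Tnf difference with LPS was -0.88. In bulk RNA, fewer cells of a type and less RNA per cell cannot be told apart.

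**Figure D1:**
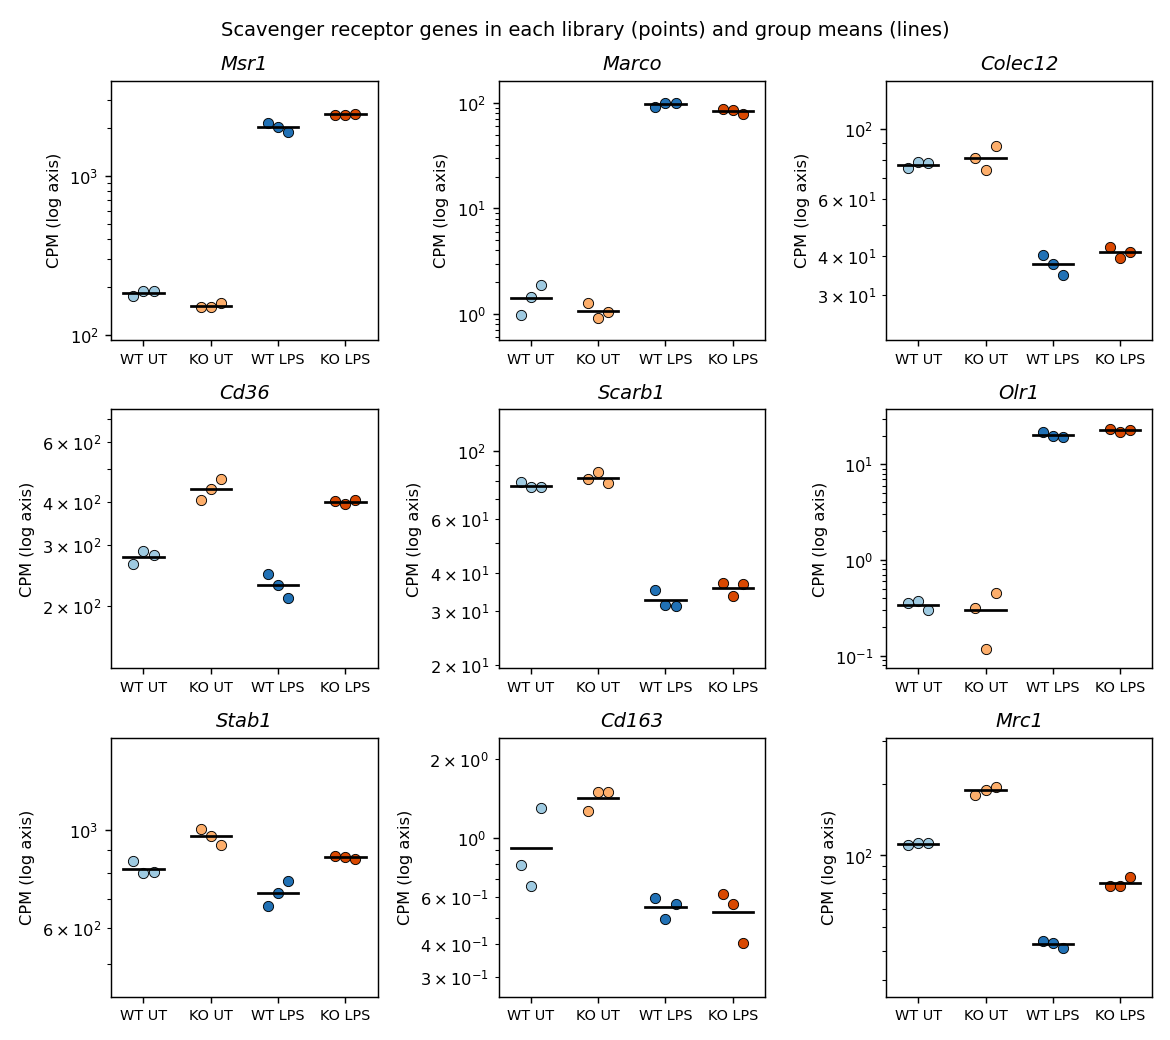
Level of each of the 9 scavenger receptor genes (CPM, log axis) in the 12 libraries, with points for libraries, lines for group means, and 1 panel for each gene. Msr1, Marco and Olr1 stand far higher in both LPS groups, Mrc1, Scarb1 and Colec12 lie lower there, and Cd36 and Mrc1 lie higher in KO than in WT in both conditions.

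Cd36, the fatty acid and oxidized lipid receptor, and Mrc1, the mannose receptor, were higher in KO than in WT both without and with LPS. Without LPS, Cd36 was 264, 288 and 280.0 CPM in WT and 407, 438 and 467 CPM in KO. With LPS it was 247, 229.8 and 209.8 CPM in WT and 405, 395 and 406 CPM in KO. In both conditions all 3 KO libraries stood above all 3 WT libraries. Cd36 was 1.58-fold higher in KO UT (log2 0.66, SE 0.0634, edgeR adjusted p = 2.25e-07) and 1.75-fold higher in KO LPS (log2 0.81, SE 0.0640, edgeR adjusted p = 3.12e-08). The gene lies at chr5:17781690-17888801 on the minus strand of GRCm38.

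Mrc1 was 111, 112 and 113 CPM in WT UT and 179.6, 188 and 194 CPM in KO UT. After LPS it was 44.0, 43.2 and 41.0 CPM in WT and 74.7, 74.9 and 81.2 CPM in KO. The KO libraries again lay above the WT libraries in both conditions, without overlap. The difference was 1.67-fold in UT (log2 0.74, SE 0.0542, edgeR adjusted p = 3.93e-09) and 1.80-fold with LPS (log2 0.85, SE 0.0580, edgeR adjusted p = 3.33e-09). Mrc1 lies at chr2:14229392-14332057 on the plus strand and hosts the microRNA gene Mir511 in its introns on the same strand. With the structured RNA share as a covariate Cd36 stood at a log2 difference of 1.11 in UT and 0.57 with LPS, and Mrc1 at 0.97 and 0.73, with edgeR adjusted p of at most 2.00e-05. Among the alternatives run, only Cd36 in UT with the covariate reached the fold minimum of a call.

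Marker sums moved beside these differences. The macrophage markers, of which Lyz2 made up 78.4%, were higher in KO by log2 0.19 in UT and 0.16 with LPS, without overlap of libraries. The stromal markers were higher in KO by log2 0.64 in UT and 0.59 with LPS, also without overlap. Pdgfrb made up 46.3% of that sum and differed by a log2 value of -0.0086 with LPS, whereas 6 of the 8 stromal markers tested were called higher in KO LPS and 3 of 8 in KO UT, against 1.25% and 1.82% of all genes called, with medians of 1.44 and 0.68 over the 8. Acta2, the smooth muscle actin, was higher in KO LPS by 1.80 and the collagen gene Col1a1 by 1.40. The sum of the endothelial markers was lower in KO by log2 values of -0.46 and -0.34, with Kdr as 53.6% of it. Kdr and Vwf passed the test as lower in both conditions, while Pecam1 passed as higher in KO UT (0.73, edgeR adjusted p = 0.0355) and Cdh5 passed in neither. The sum of the neutrophil markers, of which S100a8 made up 67.2%, was higher in KO UT by 1.19 and overlapped with LPS (0.18). Of the 5 tested, 4 were called higher in KO UT, among them Mpo (2.83) and Camp (2.04), and with LPS S100a9 passed the test as higher (0.76, edgeR adjusted p = 9.36e-04). The covariate left Mpo at 0.53, Camp at 1.61, S100a8 at 0.12 and S100a9 at 0.46 in UT, none past the test. With LPS and the covariate S100a9 stood at 1.15 (edgeR adjusted p = 3.71e-04) and S100a8 at 0.68 (3.57e-04). With LPS the covariate left Acta2 at 2.06, the only called stromal marker that still passed the test. Col1a1 (0.68, edgeR adjusted p = 0.671), Col1a2 (0.54), Col3a1 (0.29), Dcn (1.18) and Tagln (1.31) no longer passed. In UT Acta2 (0.45) and the called Tagln (1.81), Dcn (2.30) and Pdgfra (2.95) did not pass with the covariate either. Kdr and Vwf passed with the covariate only in LPS (-0.58 and -0.38, against -0.08 and -0.44 in UT), and Pecam1 no longer passed in UT (0.38). The part of these cell types in the receptor differences was not tested.

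Stab1, a large clearance receptor, was higher in KO by a smaller amount. It was 849.9, 800.2 and 802 CPM in WT UT and 1004, 968 and 923 CPM in KO UT. With LPS it was 674, 719 and 768 CPM in WT and 870.2, 867 and 861 CPM in KO. The genotypes did not overlap in either condition, and the 3 KO LPS libraries lay close together. The log2 difference was 0.24 in UT (SE 0.0534, edgeR adjusted p = 0.00196) and 0.27 with LPS (SE 0.0535, edgeR adjusted p = 0.00200). With the structured RNA share as a covariate the difference was -0.11 in UT (edgeR adjusted p = 0.593) and 0.45 with LPS (2.24e-06), so the direction in UT rests on the fit without it. Stab1 lies at chr14:31139013-31168641 on the minus strand. It shares 112 exon bases with Nt5dc2 on the opposite strand, and how the counting used strand is not stated.

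Msr1, the class A receptor for acetylated LDL and bacterial polyanions, differed between genotypes in opposite directions in the 2 conditions. The gene lies at chr8:39581685-39642673 on the minus strand. It was 176, 189 and 188 CPM in WT UT and 149, 149.6 and 159 CPM in KO UT, so that every KO library was lower. With LPS it was 2137, 2028 and 1875 CPM in WT and 2425, 2409.8 and 2465 CPM in KO, so that every KO library was higher. The log2 difference of KO from WT was -0.27 in UT (SE 0.0536, edgeR adjusted p = 6.29e-04) and 0.27 with LPS (SE 0.0528, edgeR adjusted p = 0.00143). The LPS response was therefore larger in KO by a log2 value of 0.55 (SE 0.0753, 95% interval 0.39 to 0.70, edgeR adjusted p = 6.04e-05), tested as the interaction of genotype and LPS. Msr1 ran opposite to the structured RNA share: it was lowest in the UT libraries with the highest share, and lowest among the LPS libraries in the WT library with 6.73%. With the share as a covariate the interaction was 0.02 (edgeR adjusted p = 0.976), and the genotype differences were 0.07 in UT (0.730) and 0.09 with LPS (0.324). No other of the 9 genes passed the test of the interaction, against 16.8% of all genes that passed it and 2.16% that were called. Cd36 passed it without WT LPS replicate 1 (0.21, edgeR adjusted p = 0.0493), and Stab1 with the covariate (0.56, edgeR adjusted p = 0.0248).

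**Figure D2:**
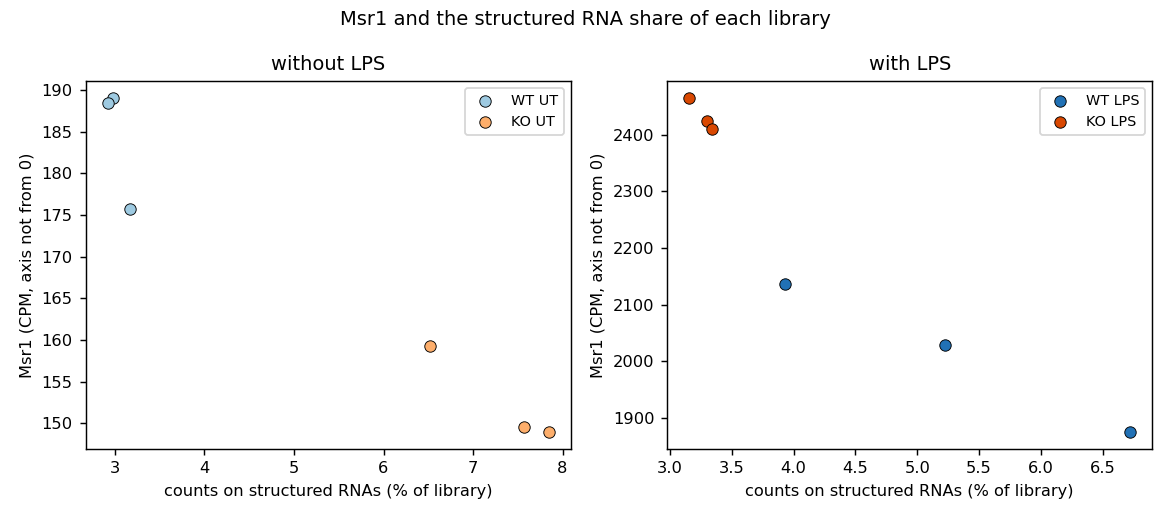
Msr1 (CPM, axis not from 0) against the percentage of counts on structured RNAs, with a point for each library, UT libraries on the left and LPS libraries on the right. In each panel the genotype with the higher share has the lower Msr1, and the genotypes do not overlap on the horizontal axis.

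For the other 5 receptors no difference between KO and WT passed the test. Marco, a class A receptor that binds bacteria and lies at chr1:120474538-120505024 on the minus strand, was 90.4, 100.2 and 99.7 CPM in WT LPS and 86.6, 85.0 and 77.9 CPM in KO LPS. Its groups did not overlap, and the log2 difference of -0.22 (95% interval -0.39 to -0.05) had an edgeR adjusted p of 0.0804. The edgeR adjusted p was 0.0168 without WT LPS replicate 1, 0.0462 without WT UT replicate 1, 0.0353 with protein-coding genes only and up to 0.271 with other libraries left out, so it lay on either side of the threshold. With the covariate Marco stood at -0.09 with LPS (edgeR adjusted p = 0.697) and at -0.66 in UT (0.142). In UT Marco was at 42, 65 and 88 counts in WT and 44, 31 and 41 counts in KO, and the groups overlapped (log2 -0.42, 95% interval -0.84 to -0.01, edgeR adjusted p = 0.140). That difference of Marco ran from -0.62 without WT UT replicate 1 (edgeR adjusted p = 0.0175) to -0.18 without WT UT replicate 3 (0.606), and was -0.50 with DESeq2 (adjusted p = 0.0257).

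Scarb1, which takes up cholesterol esters from HDL, differed by a log2 value of 0.08 in UT (95% interval -0.04 to 0.21) and 0.13 with LPS (95% interval -0.00 to 0.27). Colec12, a collectin of the class A type, differed by 0.07 in UT (95% interval -0.06 to 0.21) and 0.12 with LPS (95% interval -0.02 to 0.27). Both had overlapping groups, and differences within these intervals are not excluded. Scarb1 lies at chr5:125277087-125341094 on the minus strand and Colec12 at chr18:9707595-9882644 on the plus strand. Without WT LPS replicate 1 Scarb1 with LPS stood at 0.19 (edgeR adjusted p = 0.0402), and with the covariate Colec12 in UT stood at 0.50 (0.0382). The covariate moved Scarb1 to 0.26 in UT (edgeR adjusted p = 0.403) and 0.04 with LPS (0.862), and Colec12 to -0.095 with LPS (0.611).

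Olr1 and Cd163 had few counts in some or all groups. Olr1 in UT was at 15, 17 and 14 counts in WT and 11, 4 and 18 counts in KO, and the interval of the log2 difference ran from -0.86 to 0.54. With LPS it was 21.8, 19.6 and 19.5 CPM in WT and 23.5, 21.7 and 22.8 CPM in KO, the groups overlapped, and the interval ran from -0.07 to 0.38. The covariate moved Olr1 to 0.16 in UT (edgeR adjusted p = 0.904) and -0.0059 with LPS (0.992). Olr1 lies at chr6:129485244-129507165 on the minus strand and Cd163 at chr6:124304656-124330527 on the plus strand. Cd163, the haemoglobin-haptoglobin receptor, was at 34, 30 and 61 counts in WT UT, 44, 51 and 59 in KO UT, 16, 11 and 12 in WT LPS and 16, 15 and 11 in KO LPS. Its log2 difference was 0.62 in UT (95% interval 0.01 to 1.24, edgeR adjusted p = 0.139) and -0.07 with LPS (95% interval -0.89 to 0.74, edgeR adjusted p = 0.925). With single libraries left out the UT difference of Cd163 ran from 0.44 without WT UT replicate 2 (edgeR adjusted p = 0.391) to 0.96 without WT UT replicate 3 (0.0420). With the covariate Cd163 stood at 0.99 in UT (edgeR adjusted p = 0.701) and -0.26 with LPS (0.878). At this depth, differences of Olr1 in UT and of Cd163 within these intervals are not excluded.

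In counts, 0 of the 9 receptors were called between genotypes in UT, against 1.82% of all genes tested, and 0 of 9 with LPS, against 1.25%. By the adjusted p alone, 3 of 9 were higher and 1 was lower in KO UT, where 14.1% of all genes were higher and 9.69% lower. With LPS 4 of 9 were higher and 0 lower in KO, where 7.78% of all genes were higher and 6.54% lower. The UT and LPS comparisons of genotype share no library, but they share the KO and WT genotypes, the batch numbers and the fit. They are thus not fully independent. The median log2 difference over the 9 genes was 0.08 in UT and 0.16 with LPS, beside 0.00 and -0.01 over all genes. The groups did not overlap for 5 of 9 receptors with LPS and for 4 of 9 in UT, against 29.1% and 40.8% of all genes.

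**Figure D3:**
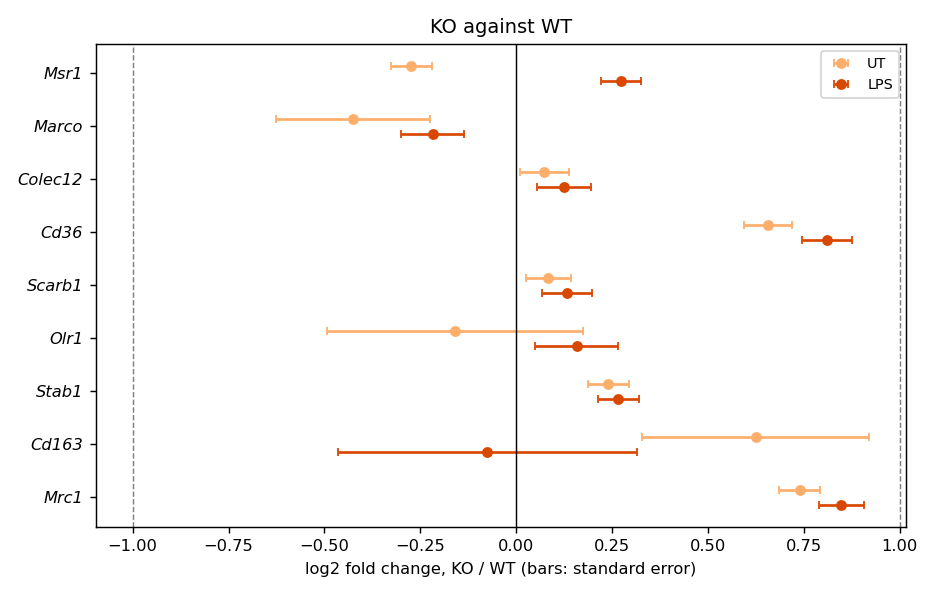
Log2 fold change of KO against WT for the 9 genes, with points for UT and LPS and bars for the standard error. Cd36, Mrc1 and Stab1 lie to the right of 0 in both conditions, Msr1 lies at -0.27 in UT and 0.27 with LPS, and no point passes the dashed lines at the fold minimum of a call.

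LPS for 6 hr changed the receptors in different directions. Msr1, Marco and Olr1 rose, whereas Mrc1 and Scarb1 fell in both genotypes. Marco went from at most 1.87 CPM in any UT library to at least 77.9 CPM in every LPS library. Its rise was 67.0-fold in WT (log2 6.07, SE 0.119, edgeR adjusted p = 4.11e-21) and 77.3-fold in KO (log2 6.27, SE 0.129, edgeR adjusted p = 8.23e-21). Olr1 went from at most 0.455 CPM in UT to at least 19.5 CPM with LPS, a log2 rise of 5.88 in WT (SE 0.171, edgeR adjusted p = 3.73e-18) and 6.20 in KO (SE 0.180, edgeR adjusted p = 3.51e-18). The UT counts of Olr1 were 4 to 18 per library, so the size of its rise is less precise than that of Marco. Msr1, already well expressed in UT, rose by 10.9-fold in WT (log2 3.45, SE 0.0582, edgeR adjusted p = 3.29e-22) and 15.9-fold in KO (log2 3.99, SE 0.0598, edgeR adjusted p = 4.82e-23).

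Mrc1 fell by 1.39 on the log2 scale in WT (SE 0.0575, edgeR adjusted p = 2.17e-15) and by 1.28 in KO (SE 0.0556, edgeR adjusted p = 5.29e-15). Its KO LPS libraries, at 74.7 to 81.2 CPM, stood between WT LPS and WT UT. Scarb1 was 79.2, 76.1 and 76.5 CPM in WT UT, 81.4, 85.6 and 78.7 CPM in KO UT, 35.3, 31.5 and 31.2 CPM in WT LPS and 37.1, 33.8 and 36.7 CPM in KO LPS. It fell by 1.24 in WT (edgeR adjusted p = 8.24e-14) and by 1.19 in KO (edgeR adjusted p = 1.38e-13). Colec12 was 75.2, 78.4 and 77.8 CPM in WT UT, 80.8, 74.3 and 88.2 CPM in KO UT, 40.2, 37.5 and 34.8 CPM in WT LPS and 42.5, 39.4 and 40.9 CPM in KO LPS. It fell by 1.04 in WT (edgeR adjusted p = 7.75e-12) and by 0.99 in KO (edgeR adjusted p = 1.56e-11), on either side of the fold minimum. The call in WT was lost without WT LPS replicate 3 (-0.99), and KO was called without KO UT replicate 2 (-1.05) or without KO LPS replicate 1 (-1.01).

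Cd163 stood at a log2 change of -1.43 in KO, where it was called (SE 0.336, edgeR adjusted p = 6.82e-04), and at -0.73 in WT (SE 0.347, edgeR adjusted p = 0.0642). The difference between these responses, -0.70, did not pass the test (edgeR adjusted p = 0.373). With the structured RNA share as a covariate the change in KO was -1.76 with an edgeR adjusted p of 0.158, and in WT the change ran from -0.92 without WT UT replicate 2 (edgeR adjusted p = 0.0264) to -0.40 without WT UT replicate 3 (0.339), and was -0.91 with upper-quartile scaling (0.0221). The values of Cd36 and Stab1 depended on the scaling. Cd36 fell by 0.28 in WT (SE 0.0637, edgeR adjusted p = 5.71e-04) and stood at -0.12 in KO (95% interval -0.25 to 0.01, edgeR adjusted p = 0.0884). The value in KO passed the test at -0.17 without KO UT replicate 1 (edgeR adjusted p = 0.0301) and with either of WT LPS replicates 1 and 3 left out (0.0371 and 0.0457). It also passed at -0.54 with the covariate (edgeR adjusted p = 6.74e-05), at -0.31 with upper-quartile scaling (8.27e-05), which gave -0.46 in WT, and at -0.12 with only the compared groups in the fit (0.0442). Stab1 fell by 0.18 in WT (edgeR adjusted p = 0.00428) and by 0.16 in KO (edgeR adjusted p = 0.0123), and the latter was -0.12 (edgeR adjusted p = 0.0686) without KO UT replicate 1. With the covariate, Cd36 in WT was at 0.0013 (edgeR adjusted p = 0.991) and Stab1 in KO at 0.16 (0.125), and with protein-coding genes only Stab1 in WT was at -0.10 (0.0840). Stab1 stood at -0.36 in WT and -0.34 in KO with upper-quartile scaling, and at -0.40 in WT with the covariate.

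In each genotype 3 of the 9 receptors were called higher with LPS and 3 lower. Over the whole table, 19.1% of genes were called as higher and 18.7% as lower in WT, and 17.7% and 19.3% in KO. By the adjusted p alone 8 of 9 changed in each genotype, against 73.3% of all genes in WT and 72.8% in KO. UT and LPS libraries did not overlap for any of the 9 genes in either genotype, against 74.8% and 76.0% of all genes. The median log2 change of the 9 genes was -0.28 in WT and -0.16 in KO, beside 0.05 and -0.06 over all genes. LPS thus changed a large share of all genes, and these counts do not set the receptors apart.

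**Figure D4:**
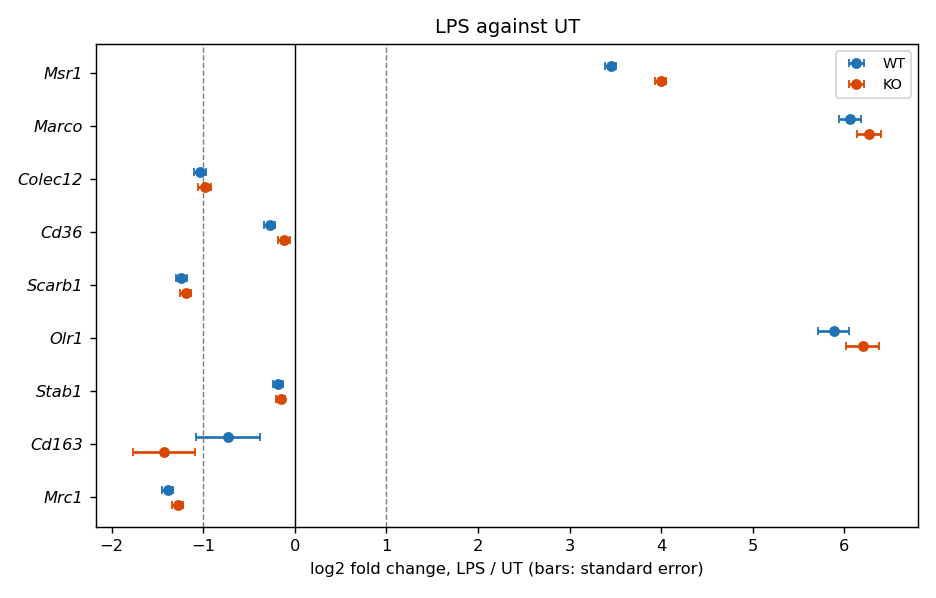
Log2 fold change of LPS against UT for the 9 genes in WT and KO, with bars for the standard error and dashed lines at the fold minimum of a call. Marco and Olr1 lie near 6, Msr1 lies at 3.45 in WT and 3.99 in KO, and the other genes lie at or below 0.

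Per exon length, the receptors changed their order with LPS. Levels are given here as FPKM, the scaled CPM per kilobase of all exons of the gene. In WT UT the highest were Stab1 (79.4 ± 2.74, SD, n = 3) and Cd36 (77.2 ± 3.50), which overlapped, followed by Msr1 (29.1 ± 1.18) and Mrc1 (17.6 ± 0.163). Scarb1 (9.09 ± 0.195) and Colec12 (8.84 ± 0.196) overlapped below them, and Marco (0.742 ± 0.231), Cd163 (0.168 ± 0.0613) and Olr1 (0.0955 ± 0.0111) were low. In KO UT Cd36 (121.8 ± 8.35) stood above Stab1 (93.8 ± 3.94) with no overlap, and Mrc1 (29.4 ± 1.12) above Msr1 (24.1 ± 0.915), an order that reversed with the longest transcript as length. Scarb1 (9.64 ± 0.412) and Colec12 (9.30 ± 0.795) overlapped there too, above Marco (0.558 ± 0.0954), Cd163 (0.260 ± 0.0236) and Olr1 (0.0831 ± 0.0475).

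With LPS, Msr1 led by far in both genotypes, at 317 ± 20.7 FPKM in WT and 384 ± 4.52 FPKM in KO (SD, n = 3). In WT LPS Stab1 (70.0 ± 4.56) and Cd36 (63.8 ± 5.23) overlapped in second place, above Marco (50.3 ± 2.86). In KO LPS Cd36 (112 ± 1.64) stood above Stab1 (84.2 ± 0.462), and Marco was at 43.2 ± 2.39. Mrc1 followed at 6.71 ± 0.241 FPKM in WT and 12.1 ± 0.585 FPKM in KO, above Olr1 at 5.68 ± 0.360 and 6.34 ± 0.242 FPKM. Colec12 (4.30 ± 0.313 in WT and 4.69 ± 0.177 in KO) and Scarb1 (3.84 ± 0.265 and 4.22 ± 0.214) came next, and Cd163 was last at 0.101 ± 0.00963 and 0.0964 ± 0.0202 FPKM. These orders depend on the gene models, and with the longest transcript as length the rank of 2 to 4 genes per group changed. Scarb1 then moved from rank 8 to rank 5 in WT LPS (10.6 FPKM), above Mrc1, Olr1 and Colec12, and in KO UT Msr1 (42.0 FPKM) stood above Mrc1 (34.8 FPKM).

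Summed over the 9 receptors, FPKM was 222 ± 2.32 in WT UT, 289 ± 6.59 in KO UT, 522 ± 20.3 in WT LPS and 650.3 ± 4.89 in KO LPS (SD, n = 3). Msr1 made up 13.1% of that sum in WT UT and 60.7% in WT LPS, and 8.33% and 59.0% in KO. Cd36 made up 34.7% in WT UT and 12.2% in WT LPS, and 42.1% and 17.2% in KO. The share of Marco was 0.334% in WT UT against 9.65% in WT LPS, and 0.193% against 6.65% in KO, whereas that of Mrc1 was 7.91% against 1.28% and 10.2% against 1.86%. The receptor mRNA of UT cells was thus mainly Stab1 and Cd36, and that of LPS cells mainly Msr1.

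**Figure D5:**
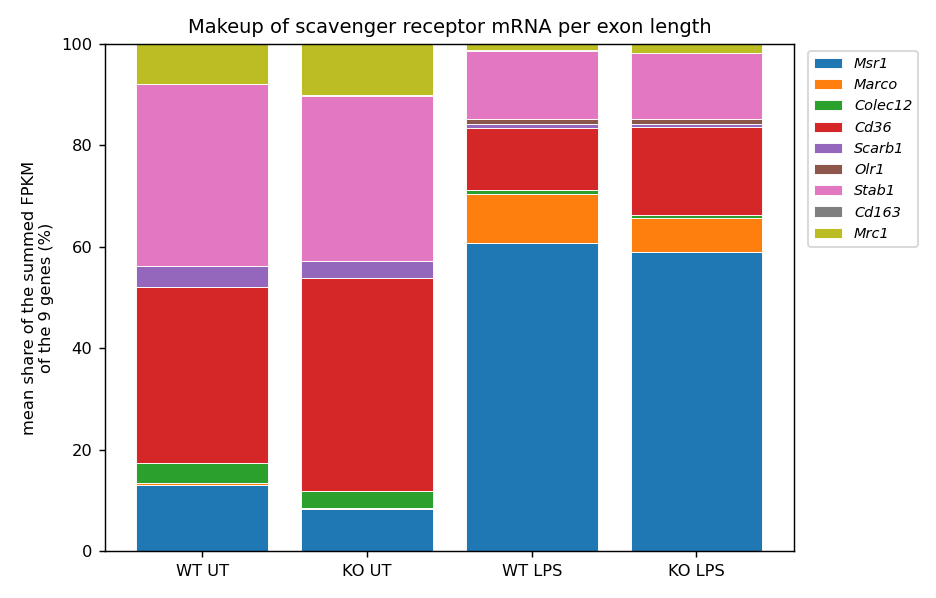
Mean share (%) of each gene in the summed FPKM of the 9 scavenger receptors in each group, stacked to 100%. Stab1 and Cd36 fill most of both UT bars, and Msr1 fills 60.7% of the WT LPS bar and 59.0% of the KO LPS bar.

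The genes whose level followed each receptor most closely over the 12 libraries were taken by the smallest root mean square distance of log2 CPM, each centred on its own mean, among 9077 protein-coding genes. They were Spata13 (distance 0.0644) and Gpd2 (0.0658) for Msr1, Cmtm3 (0.0539) and Arrb2 (0.0548) for Stab1, and Cmas (0.0509) and Map3k14 (0.0619) for Scarb1. For Colec12 they were Sephs2 (0.0531) and Colgalt1 (0.0536), and for Mrc1 they were H1f0 (0.110) and Selenop (0.114). Cd36 was followed less closely by Folr2 (0.183) and Id2 (0.184), Marco by Tnfsf10 (0.215) and Slc28a2 (0.230), and Olr1 by Clec4e (0.320) and Slco3a1 (0.329). Cd163 was nearest to Ftl1-ps1 and Gstp1 (0.189 each), and Ftl1-ps1 is close in sequence to the ferritin gene Ftl1, so its counts are uncertain.

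Among 20 other scavenger receptor genes, 16 were tested. With LPS 7 were called higher and 3 lower in WT, where 19.1% and 18.7% of all genes were, and 8 higher and 2 lower in KO, where 17.7% and 19.3% of all genes were, with a median log2 change of 1.09 in WT. The 4 that were not tested, Scara3, Scara5, Megf10 and Cd163l1, had at most 11 counts in any library. Scarf1, a receptor of modified LDL on endothelial cells and macrophages, rose by 2.41 on the log2 scale in WT, the phospholipase receptor Pla2r1 by 2.39 and the uptake lectin Ly75 by 2.36. Cd5l, a secreted protein of the scavenger receptor cysteine-rich family made by macrophages, fell by 1.45. None was called between genotypes, but Cd5l passed the test as higher in KO in UT (log2 0.56, edgeR adjusted p = 2.61e-07) and with LPS (0.41, edgeR adjusted p = 1.13e-04). With the covariate Cd5l stood at 0.54 in UT (edgeR adjusted p = 0.0245) and 0.42 with LPS (0.00240). The list held 3 genes higher and 2 lower by adjusted p in KO UT, and 2 higher and 0 lower in KO LPS. The shares over all genes were 14.1% and 9.69% in UT and 7.78% and 6.54% with LPS.

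Genes that handle the lipid brought in by these receptors (15 of 16 tested) had 4 members called higher and 6 lower with LPS in each genotype, with a median log2 change of -0.20 in WT, beside 19.1% higher and 18.7% lower of all genes in that genotype. The cholesterol exporter Abcg1 fell by 2.42 in WT, the lysosomal lipase Lipa by 2.28 and the lysosomal cholesterol transporter Npc1 by 1.44. The triglyceride synthesis enzyme Dgat2 rose by 4.51, the acyl-CoA synthetase Acsl1 by 4.34 and the cholesterol exporter Abca1 by 1.59. Between genotypes Apoe, the lipid carrier secreted by macrophages, was called higher in KO in UT (log2 1.53, edgeR adjusted p = 3.31e-12) and with LPS (1.23, edgeR adjusted p = 2.76e-10). It was the only gene of the list called in either comparison. Lpl, the lipoprotein lipase, passed the test as higher in KO in both (0.17 and 0.39). Fabp4, a fatty acid carrier, was higher in KO UT by 0.85 and lower in KO LPS (-0.26), and its LPS response differed between genotypes by -1.11 (edgeR adjusted p = 3.89e-07). With the covariate Apoe remained called in both (1.11 and 1.44) and Lpl passed in both (0.58 and 0.18), while Fabp4 passed in UT (0.65) but not with LPS (-0.16, edgeR adjusted p = 0.494) or in the difference of responses (-0.81, edgeR adjusted p = 0.149). By the adjusted p alone 4 of 15 were higher and 0 lower in KO UT (14.1% and 9.69% of all genes), and 2 were higher and 2 lower in KO LPS (7.78% and 6.54% of all genes).

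Among 14 partners and ligands of uptake (13 tested), 6 were called higher with LPS in WT and 9 in KO, and 0 lower in either, with a median log2 change of 0.97 in WT. The shares of all genes called were 19.1% (higher) and 18.7% (lower) for WT and 17.7% and 19.3% for KO. Haptoglobin (Hp), whose complex with haemoglobin is the ligand of Cd163, rose by 6.51 in WT while Cd163 stood at or under 61 counts per library. Tlr2, a co-receptor in the sensing of bacterial lipids with Cd36, rose by 2.45, and the haem-degrading enzyme Hmox1 by 2.29. None was called between genotypes. Tlr2 passed the test as lower in KO in both conditions (-0.27 in UT and -0.23 with LPS), and Hmox1 as higher (0.16 and 0.19). The kinase Lyn, which acts with Cd36 and Fc receptors, was lower in KO UT (-0.20) and higher in KO LPS (0.20), as Msr1 was. With the covariate Lyn passed in neither (0.28 in UT and -0.05 with LPS), nor did Hmox1 (0.14 and 0.20), and Tlr2 passed with LPS (-0.34) but not in UT (-0.06). By the adjusted p alone the list had 3 higher and 3 lower in KO UT and 6 higher and 2 lower in KO LPS, where the shares of all genes were 14.1% and 9.69%, and 7.78% and 6.54%. With the covariate none of the 6 higher genes passed in KO LPS, whereas the 2 lower genes did. None of the higher or lower genes of KO UT passed with the covariate there, while other genes of the list passed only with it in each condition.

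Of 14 transcription regulators with known links to these receptors, all tested, 5 were called higher and 6 lower with LPS in each genotype, beside the 19.1% and 18.7% of all genes in WT. Pparg, a nuclear receptor that drives Cd36 in macrophages, fell by 2.92 in WT, its partner Rxra by 2.60 and Klf4 by 3.04. Tfec rose by 3.18, the macrophage lineage factor Spi1 by 1.31 and the oxysterol receptor Nr1h3 by 1.20. None was called between genotypes. Pparg passed the test as higher in KO in UT (log2 0.27, edgeR adjusted p = 0.00194) and with LPS (0.30, edgeR adjusted p = 0.0294), and Klf2 as lower (-0.45 and -0.37). Rxra was higher in KO with LPS (0.61, edgeR adjusted p = 6.85e-04) and differed by -0.08 in UT (edgeR adjusted p = 0.496). With the covariate Pparg passed in neither condition (0.43 in UT and 0.22 with LPS) and Rxra not with LPS (0.39, edgeR adjusted p = 0.139), while Klf2 passed with LPS (-0.52) but not in UT (-0.14). By the adjusted p alone 1 was higher and 2 were lower in KO UT, and 4 were higher and 1 lower in KO LPS, against 14.1% and 9.69% of all genes in UT and 7.78% and 6.54% with LPS.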

How the data were processed

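Libraries were prepared with a stranded total RNA kit with globin depletion. Per the labels and the study's methods, the authors aligned reads to GRCm38 with HISAT2 2.1.0 and counted them per gene with featureCounts 2.0.0, after FastQC 0.11.9 and with SAMtools 1.17. The deposited values are raw counts per gene, not normalized. The annotation release, strand setting and treatment of multi-mapping reads are not given in the sources used here. Symbols and exon lengths came from GENCODE vM21, which matched 48144 of 48526 identifiers. Members, lists and tests were chosen with earlier results of these data known.

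All 12 libraries entered an edgeR 4.0.16 quasi-likelihood fit of 4 group means (R 4.3.3, limma 3.58.1) with TMM scaling and no covariate. The filter (filterByExpr, minimum count 10, minimum total 15) left 15523 genes with 99.96% of counts. P-values were adjusted by the Benjamini-Hochberg method, intervals are 95%, and log2 CPM used a prior count of 2. The common biological coefficient of variation was 0.0712. Totals of 26154533 to 36423921 counts leave genes under about 100 counts imprecise. The intervals of log2 differences come from the fit and include the variation between libraries.

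Apart from the 9 members and Tnf, genes of the lists were named by a rule: a mean CPM of at least 5 and a call between genotypes, or an adjusted p below 0.05 in both genotype comparisons, or a place among the 3 largest called increases or decreases with LPS in WT. For each member the 2 genes with the most similar pattern were named too. The marker lists covered macrophages, stromal, endothelial, dendritic, B and T cells and neutrophils.

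In the labels, libraries of the same replicate number carry the same batch number, which does not show that they shared a mouse or culture. Over 18 pairs the correlation of deviations from group means ran from -0.0631 to 0.0373, and 0 pairs exceeded 0.1. No replicates agreed within counting noise (chi-square per degree of freedom of at least 3.73). The alternatives were DESeq2 1.42.0, other scaling and filters, a replicate block, fits of only the groups compared or only protein-coding genes, a structured RNA covariate, no fold minimum, the longest transcript as gene length and each library left out. Covariate values for list and marker genes were added after the data were seen. The code was tested on simulated data. Figures used matplotlib 3.10.9 in Python 3.11.15.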

Additional observations from a re-analysis of the deposited data

Results flagged for a closer look

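The response of Msr1 to LPS differed between genotypes by 0.55 on the log2 scale, with the difference itself tested as an interaction (edgeR adjusted p = 6.04e-05). Msr1 stood at 176 to 189 CPM in WT UT against 149 to 159 CPM in KO UT, and at 1875 to 2137 CPM in WT LPS against 2409.8 to 2465 CPM in KO LPS. The structured RNA share was higher in KO UT and in WT LPS, the groups with the lower Msr1, and with that share as a covariate the difference was 0.02 (edgeR adjusted p = 0.976). The difference remained past the threshold of the test with each of the 12 libraries left out in turn (0.50 to 0.59, edgeR adjusted p at most 4.59e-04). Groups of 3 libraries are too small for a test of single libraries that stand apart.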

How the results depend on the processing

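Of 931 alternative values of the 9 genes, 900 kept their direction and side of the call, and 540 of the 931 had 1 library left out. No receptor was called between genotypes or in the interaction, so for these comparisons the tally shows little beyond direction. It does not follow the adjusted p, and counts the Msr1 interaction of 0.02 with the covariate as kept. With no fold minimum the counts of called receptors became 4 for KO LPS against WT LPS, 4 for KO UT against WT UT and 1 for the interaction, from 0 each. The structured RNA covariate made Cd36 a call in KO UT (count 1). It also turned the direction of 12 differences. For KO against WT with LPS these were Olr1 (-0.0059) and Colec12 (-0.095), in UT Msr1 (0.074), Stab1 (-0.11) and Olr1 (0.16), for LPS against UT Cd36 in WT (0.0013) and Stab1 in KO (0.16), and for the interaction Cd36 (-0.54), Mrc1 (-0.24), Scarb1 (-0.22), Olr1 (-0.16) and Colec12 (-0.60). With protein-coding genes only the interaction of Stab1 was -0.017. With the covariate, Colec12 lost its call with LPS in WT (-0.78) and gained one in KO (-1.38), the Tnf difference with LPS was -0.88, and Colec12 in WT was -0.96 with protein-coding genes only. Colec12 in KO was called with upper-quartile scaling (-1.17) and without the filter (-1.01). Leaving out libraries gave ranges across 0 for Cd163 with LPS (-0.20 to 0.088), Olr1 in UT (-0.63 to 0.20) and the interactions of Marco (-0.038 to 0.41), Stab1 (-0.019 to 0.075), Olr1 (-0.037 to 0.79) and Colec12 (-0.0049 to 0.12). The causes were not tested.

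The replicate block, which pairs libraries by batch number, changed no call of a member, and Msr1 kept an interaction of 0.55 (edgeR adjusted p = 5.19e-04). The median over all genes moved by -0.18 in both LPS comparisons under upper-quartile scaling. With the longest transcript as gene length, 2 ranks changed in WT UT, 2 in KO UT, 4 in WT LPS and 3 in KO LPS. Depth limits Cd163 in all groups and Olr1 and Marco in UT.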
